A study of Homo sapiens with 18 samples.

Results

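The 10 genes described here encode enzymes of glycolysis that were measured in K562 cells, an established human chronic myeloid leukaemia line with red-cell features. They are HK2, PFKL, PFKP, ALDOA, GAPDH, PGK1, ENO1, PKM, PKLR and LDHA. They were chosen by name as enzymes of the pathway, with PKLR, the pyruvate kinase of red cells and liver, set beside PKM, the pyruvate kinase of most other tissues. They are 10 of 41285 genes counted, all 10 passed the filter on low counts that left 22143 genes, and each had between 330 and 172090 counts in every library. RNA was sequenced in 18 polyA-selected libraries, 2 for each of 9 groups, in 3 isogenic lines. In K562[VPR]-D9 cells doxycycline induces dCas9-VPR, a catalytically dead Cas9 joined to a transcription activator; the groups were doxycycline group D6, doxycycline group D2000 and untreated cells. In K562[KRAB]-D9 cells doxycycline induces dCas9-KRAB, the same protein joined to a repressor; the groups were doxycycline with interferon alpha (IFN), doxycycline alone, IFN alone and untreated cells. The targeted gene of both engineered lines is SAMD9. Parental K562 cells were given IFN or left untreated.

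Per the labels' protocols, cells given IFN had 1000 U/mL of it over 24 hours, and K562[KRAB]-D9 cells had doxycycline for 24 hours before IFN and during it. Those protocols name a single doxycycline concentration, 2 µg/mL. Both D6 and D2000 are labelled as doxycycline alone, and the sources used here explain neither code. The stated concentration was taken for D2000 and for K562[KRAB]-D9 cells, none was assigned to D6, and the duration is known for neither D6 nor D2000. No parental group with doxycycline was analysed here, so doxycycline itself and the fusion protein it induces cannot be told apart. The labels do not say whether each engineered line is 1 clone or whether paired libraries are independent cultures, which means that p-values reflect no more than the spread of these libraries. In bulk RNA, fewer cells that make a transcript and less of it per cell cannot be told apart.

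Glycolysis turns glucose into pyruvate in the cytosol. Hexokinase traps glucose, phosphofructokinase commits it to the pathway, aldolase splits the sugar, and the later enzymes harvest ATP and NADH before pyruvate kinase makes pyruvate and lactate dehydrogenase turns it into lactate. Mature red cells have no mitochondria and live on this pathway alone, with the red-cell form of PKLR as their pyruvate kinase. Several of these genes are textbook targets of MYC and of the hypoxia-inducible factors, and PKLR is a textbook target of the erythroid factors GATA1 and KLF1.

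The targeted gene SAMD9 was set beside the labels of the engineered lines, and it does not separate D6 from D2000. Its level was 936 and 960.5 CPM in D6 libraries and 974 and 948 CPM in D2000 libraries, against 59.9 and 61.4 CPM in untreated K562[VPR]-D9 libraries. It was 0.849 and 0.745 CPM with doxycycline and IFN in K562[KRAB]-D9 cells, against 55.0 and 53.5 CPM with IFN alone. Without IFN, SAMD9 was 0 and 0.117 CPM with doxycycline, against 0.75 and 0.364 CPM in untreated K562[KRAB]-D9 cells. Without IFN that line thus held little SAMD9 RNA even before doxycycline. Libraries held 32.7 M to 63 M counts (M, 1e+06), and the shallowest was replicate 1 of K562[KRAB]-D9 cells with IFN. The 2 libraries of that group differed more from each other than those of any other group, with a chi-square of 17.8 per gene against 4.59 to 6.39. All levels below are CPM, counts per 1e+06 counts of a library after TMM scaling. All changes are log2 fold changes ± SE from 1 edgeR quasi-likelihood model of all 18 libraries. They were called at an adjusted p under 0.05 (Benjamini-Hochberg, all genes tested). Where groups are said not to overlap, this describes their libraries, and the share of all genes without overlap is not given here.

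Promoter windows are shown for the genes that varied most between groups, PKLR and HK2, and for LDHA, the last step of the pathway. The sequences are from RefSeq on GRCh38.p14, which gave 18 windows for the 10 genes, each with 250 bases before a transcription start and 50 from it. Both strands were searched for 4 motifs. The first was CACGTG, the E-box that MYC and related factors are known to bind. The second was ACGTG, the core of the hypoxia response element, which every CACGTG also contains. The third, AGATAA, is a form of the site of GATA factors. The fourth, CACCC, is the box of KLF1 and its relatives. Capitals mark the matches, CACGT and GGGTG being the reverse strand of ACGTG and CACCC. PKLR starts at either of 2 places. The upstream one, known as the red-cell start, has its window at chr1:155301389-155301688 on the minus strand, and the downstream one, known as the liver start, at chr1:155300903-155301202 on the same strand. HK2 and LDHA also have 2 windows each, of which the one with CACGTG is shown. The HK2 window at chr2:74834920-74835219 and the LDHA window at chr11:18394313-18394612 are on the plus strand.
PKLR red-cell start: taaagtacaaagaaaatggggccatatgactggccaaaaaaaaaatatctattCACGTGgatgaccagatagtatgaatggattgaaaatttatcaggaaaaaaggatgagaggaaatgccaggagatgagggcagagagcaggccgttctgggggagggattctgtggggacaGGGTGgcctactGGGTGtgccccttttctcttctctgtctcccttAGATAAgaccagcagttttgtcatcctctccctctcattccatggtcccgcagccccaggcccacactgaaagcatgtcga
PKLR liver start: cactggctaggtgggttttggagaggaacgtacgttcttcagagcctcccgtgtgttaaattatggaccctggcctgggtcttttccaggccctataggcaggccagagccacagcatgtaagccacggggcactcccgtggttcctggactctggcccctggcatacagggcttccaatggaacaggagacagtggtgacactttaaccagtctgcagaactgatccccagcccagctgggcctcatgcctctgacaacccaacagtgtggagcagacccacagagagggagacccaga
HK2: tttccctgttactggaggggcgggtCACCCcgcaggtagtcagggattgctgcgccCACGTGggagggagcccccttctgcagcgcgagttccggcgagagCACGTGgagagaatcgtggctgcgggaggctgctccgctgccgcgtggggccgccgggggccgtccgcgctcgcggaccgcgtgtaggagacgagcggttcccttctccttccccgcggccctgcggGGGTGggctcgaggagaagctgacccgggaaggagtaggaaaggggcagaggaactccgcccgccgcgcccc
LDHA: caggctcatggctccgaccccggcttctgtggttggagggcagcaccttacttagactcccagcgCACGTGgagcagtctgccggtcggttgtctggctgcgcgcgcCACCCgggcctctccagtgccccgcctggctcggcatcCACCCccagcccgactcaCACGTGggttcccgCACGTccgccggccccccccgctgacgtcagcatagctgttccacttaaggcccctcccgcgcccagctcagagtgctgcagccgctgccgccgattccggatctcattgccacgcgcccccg

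The red-cell window of PKLR held AGATAA 31 bases before the start, the reverse of CACCC at 76 and 64 bases before it, and CACGTG at 197 bases before it. It was the only 1 of the 18 windows with AGATAA, which 10.3% of all 35116 windows in the table held. The liver window held none of the 4 motifs. HK2 had CACGTG at 194 and 149 bases before the start, and LDHA had it at 185 and 87 bases before the start. The other HK2 window, at the upstream start at chr2:74833877-74834176, held no CACGTG, 2 matches to ACGTG and 1 to CACCC. The other LDHA window, at chr11:18396101-18396400, held none of the 4 motifs. CACGTG was in 5 of the 18 windows, against 7.26% of all windows, and ACGTG in 10 of the 18, against 21.4%. CACCC was in 13 of the 18, against 59.9%. Some windows belong to the same gene or overlap, and a match is a description of the letters, not a site in use. The counts are per gene, so they do not separate transcripts from the PKLR starts.

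Levels differed widely along the pathway. Per kilobase of gene length, the median over the 18 libraries was highest for GAPDH, which makes the NADH of the pathway (526 CPM per kilobase), and ENO1, the enolase of most tissues (492). LDHA, which makes lactate, had 159.6 CPM per kilobase, PGK1, the kinase that makes the first ATP of the pathway, had 74.9, and PKM had 72.0. PKLR had 24.6 CPM per kilobase, PFKL, the liver-type phosphofructokinase, 23.2, HK2, the inducible hexokinase, 15.1, ALDOA, the muscle-type aldolase, 14.7, and PFKP, the platelet-type phosphofructokinase, 12.5. Without division by length the order began with ENO1 and ended with ALDOA. ALDOA shares 42.3% of its exonic bases on the same strand with another annotated gene, which had 24 to 317 counts per library, and the sources used here do not say how reads in shared exons were counted, so the level of ALDOA is uncertain.

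PKLR varied most of the 10 genes, with a 31.8-fold ratio between the highest and lowest group means. HK2 followed with 11.3-fold, and the other 8 genes spanned 1.77-fold (PFKL) to 3.01-fold (GAPDH). The plot of levels in every library shows that the K562[VPR]-D9 group D2000 was lowest for 8 of the 10 genes. The exceptions were PFKL, highest in D2000, and PKM, whose lowest mean was in K562[KRAB]-D9 cells with IFN.

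**Figure D1:**
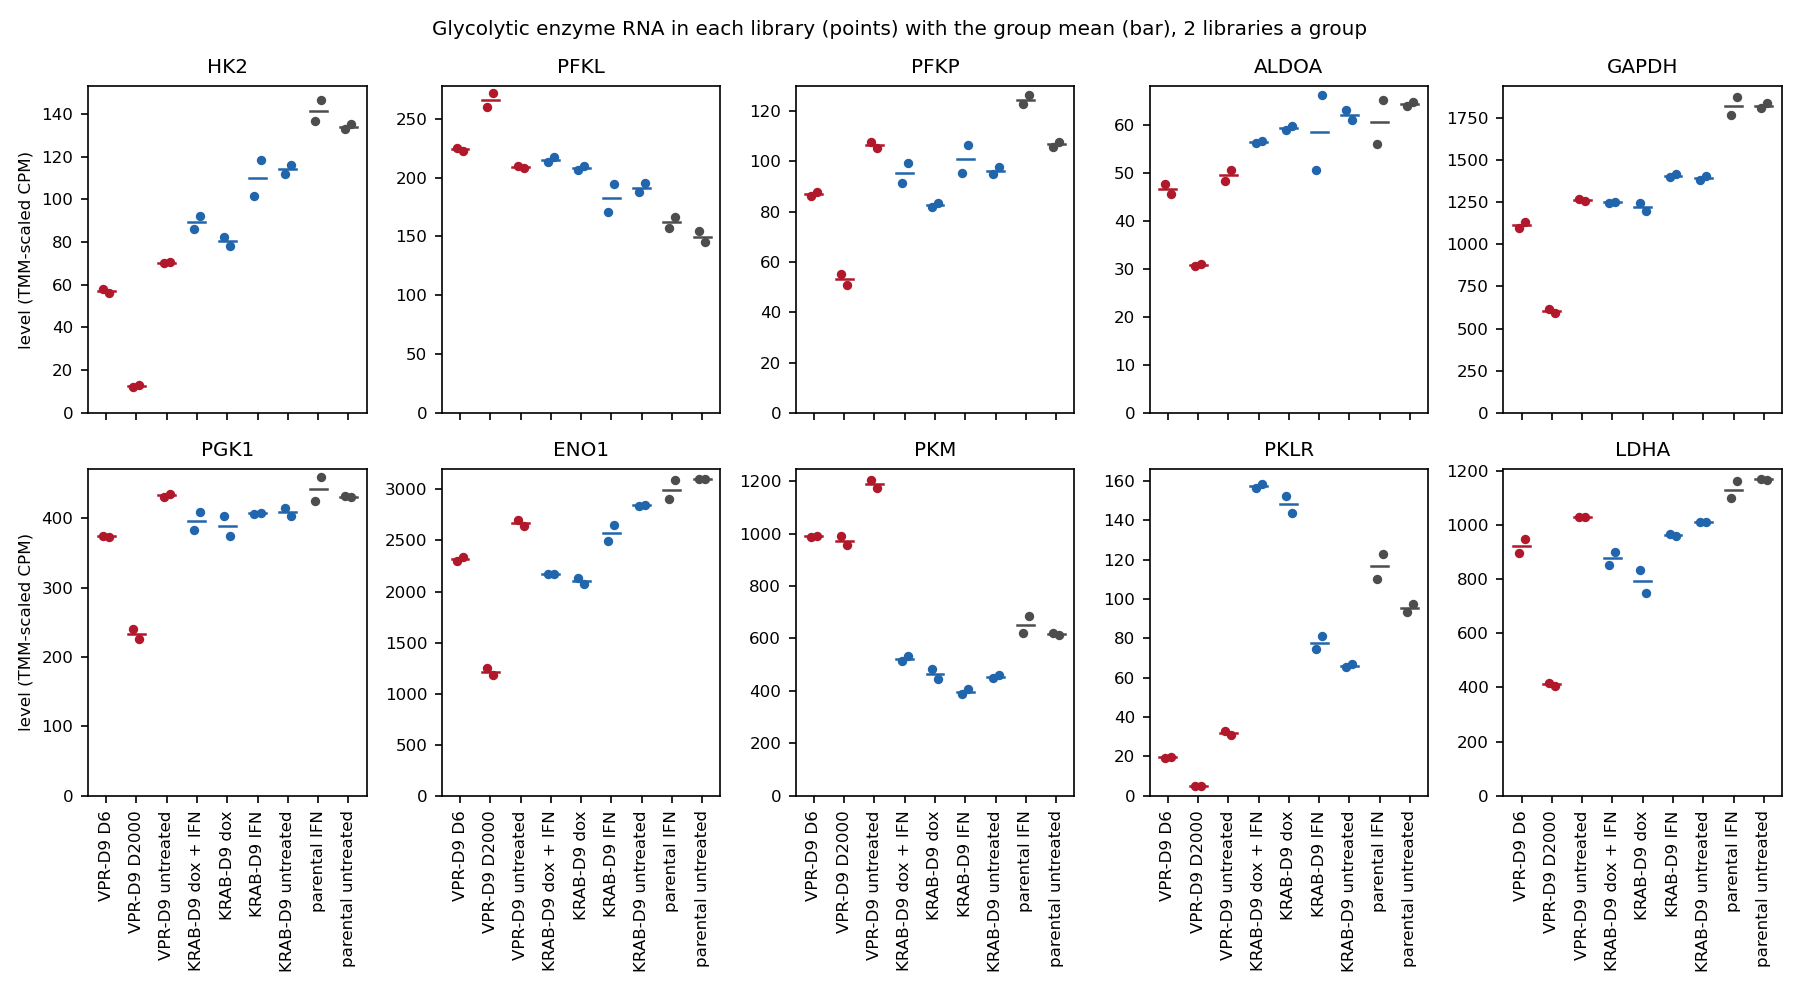
Level of each of the 10 glycolytic enzymes in each library (points, TMM-scaled CPM on a linear axis from 0) with the mean of the 2 libraries of each group (bar), red for K562[VPR]-D9, blue for K562[KRAB]-D9 and grey for parental cells; dox is doxycycline. PKLR runs down to 4.909 and 4.995 CPM in D2000 and up to 157 and 159 CPM in K562[KRAB]-D9 cells with doxycycline and IFN, and D2000 is lowest for 8 of the 10 genes.

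In D2000 cells, RNA of 9 of the 10 enzymes was lower than in untreated K562[VPR]-D9 cells, most of all HK2 at the entry of the pathway and PKLR near its end, while PFKL was higher. Of the 10 genes, 9 were called lower and 1 higher. Over all genes tested 24.2% were called lower and 21.9% higher, and over the 4745 genes with a mean of at least 50 CPM 64.7% were called lower. The median log2 fold change was -1.03 for the 10 genes, 0.06 for all genes and -0.27 for genes of at least 50 CPM. A lower call by itself was thus common among genes of at least 50 CPM. That set is not matched to the 10 enzymes in abundance, and the difference between the medians was not tested. With library totals in place of TMM 68.6% of all calls were higher, against 47.6% with TMM.

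HK2 (chromosome 2, 74834127 to 74893359, GRCh38) had 12.2 and 12.9 CPM in D2000 libraries, against 70.2 and 70.6 CPM in untreated libraries. The groups did not overlap, and the change was -2.49 ± 0.06 (edgeR adjusted p = 1.55e-28). PKLR (chromosome 1, 155289293 to 155301438, GRCh38) had 4.909 and 4.995 CPM in D2000 libraries, against 33.05 and 30.7 CPM in untreated libraries. This was 6.43-fold lower in D2000, with both libraries far below both untreated ones (-2.69 ± 0.07, edgeR adjusted p = 6.3e-28).

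LDHA (chromosome 11, 18394560 to 18408425, GRCh38) had 418 and 406 CPM in D2000 libraries, against 1029 and 1031 CPM in untreated libraries, a change of -1.32 ± 0.04 (edgeR adjusted p = 2.87e-26). ENO1 had 1248 and 1182 CPM in D2000, against 2703 and 2643 CPM in untreated cells (-1.14 ± 0.03), and GAPDH 618 and 592 CPM in D2000, against 1267 and 1255 CPM in untreated cells (-1.06 ± 0.03). These 3 abundant enzymes of the lower pathway each fell to under 0.5 times the untreated level, and no D2000 library reached an untreated one. PFKP (-1.01 ± 0.05), PGK1 (-0.89 ± 0.04) and ALDOA (-0.68 ± 0.08) fell less.

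The isozymes of a step did not move alike in D2000 cells. At phosphofructokinase, PFKL was 260.2 and 272 CPM in D2000, against 209.6 and 208 CPM in untreated cells (0.35 ± 0.05, edgeR adjusted p = 3.05e-08), and the muscle-type PFKM was also higher (0.62). PFKP was 55.2 and 50.8 CPM in D2000, against 108 and 105 CPM in untreated cells. Its share of the 3 phosphofructokinase genes, per gene length, was 14.6 and 13.4% in D2000, against 30.8 and 30.2% in untreated cells.

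At enolase, the neuronal form ENO2 was higher in D2000 (152 and 143 CPM, against 58.8 and 59.9 CPM in untreated cells, a change of 1.31), the opposite direction to ENO1. The share of ENO1 among ENO1, ENO2 and ENO3 was 84.9 and 84.7% in D2000, against 96.7% in both untreated libraries. At hexokinase, the constitutive HK1 was lower too (-0.77), but less than HK2, whose share of the pair was 3.17 and 3.53% in D2000, against 10.2% in both untreated libraries. The brain-type aldolase ALDOC was higher (0.85), and LDHB, the other lactate dehydrogenase subunit, was lower (-0.91).

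Both pyruvate kinases were lower in D2000 cells, PKLR far more. PKM (chromosome 15, 72199029 to 72231822, GRCh38) had 989 and 957 CPM in D2000 libraries, against 1206 and 1173 CPM in untreated libraries (-0.29 ± 0.04, edgeR adjusted p = 9.85e-08). With scaling to library totals in place of TMM, the change of PKM was -0.06 and not called; that scaling moved the median of all genes to 0.29. Per gene length, PKLR made up 1.33 and 1.39% of pyruvate kinase RNA in D2000, against 6.90 and 6.61% in untreated cells. These shares rest on the deposited gene lengths: without them PKLR made up 0.494 and 0.519% in D2000, against 2.67 and 2.55% in untreated cells.

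Genes around the pathway moved in both directions in D2000 cells. Among the pathway lists, the excess of lower over higher calls was largest for pyruvate entry and for pentose phosphate enzymes. The counts here and in the next paragraph stand beside the 24.2% lower and 21.9% higher of all genes tested. Among genes of at least 50 CPM 64.7% were lower and 17.3% higher, so an excess of lower calls was common there. Of 13 other glycolytic enzymes tested, 6 were called lower and 5 higher, among them PGAM1, the phosphoglycerate mutase (-0.85), lower, and BPGM, which makes the bisphosphoglycerate that tunes haemoglobin (0.58), higher. Of 8 pentose phosphate enzymes 6 were lower, including TKT (-1.02), TALDO1 (-0.83) and RPIA (-1.13), and 2 were higher. Of 7 glucose and lactate transport genes, 3 were lower and 3 higher. SLC16A3, a lactate exporter, was higher, with 12.1 and 13.4 CPM in D2000 libraries, against 1.19 and 1.56 CPM in untreated libraries (3.21 ± 0.26, edgeR adjusted p = 1.19e-13). SLC2A1, the main glucose transporter of red cells, was lower (-1.09), and so was BSG, the partner of the lactate transporters (-0.23). Of 13 regulators 3 were lower and 2 higher, with TXNIP, an inhibitor of glucose uptake, at -0.19 and PDK2, which restrains pyruvate dehydrogenase, at 1.18. Of 11 genes of pyruvate entry and gluconeogenesis 7 were lower and 1 higher, with MPC1, a subunit of the mitochondrial pyruvate carrier, at -0.92.

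Among 10 transcription factors with known roles at glycolytic genes, 4 were lower and 4 higher in D2000. MYC fell to 54.7 CPM on average in D2000, against 166 CPM in untreated cells (-1.60 ± 0.04), and KLF1 (-1.15) and GATA1 (-0.68) were lower too. Of 12 hypoxia targets outside glycolysis, 7 were higher and 2 lower. NDRG1, a stress-response gene, changed most in this list, at a low level, with 2.407 and 2.698 CPM in D2000, against 0.189 and 0.2175 CPM in untreated cells (3.64 ± 0.37, edgeR adjusted p = 5.93e-11). The collagen prolyl hydroxylases P4HA1 (1.42) and P4HA2 (1.57) were also higher. Of 15 erythroid markers, a list that also holds KLF1 and GATA1, 14 were lower. The 15 summed to 510.5 to 515.6 CPM in D2000, against 1271 to 1280 CPM in untreated libraries. Myeloid markers summed to 313.5 to 318.4 CPM in D2000, against 113.1 to 114.1 CPM in untreated libraries, with 3 of 5 tested higher and 1 lower. Such a sum need not reflect all of its genes alike. When D6 was set against D2000, ITGAM (-1.74), LYZ (-0.30) and CD33 (-0.18) were lower in D6, and CD14 and CSF3R were not called. A negative value in that comparison means a lower level in D6 than in D2000. Lymphoid markers summed to 15.64 to 16.95 CPM in D2000, against 9.721 to 11.11 CPM in untreated libraries. The part of these cell markers in the changes of the 10 enzymes was not tested.

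**Figure D2:**
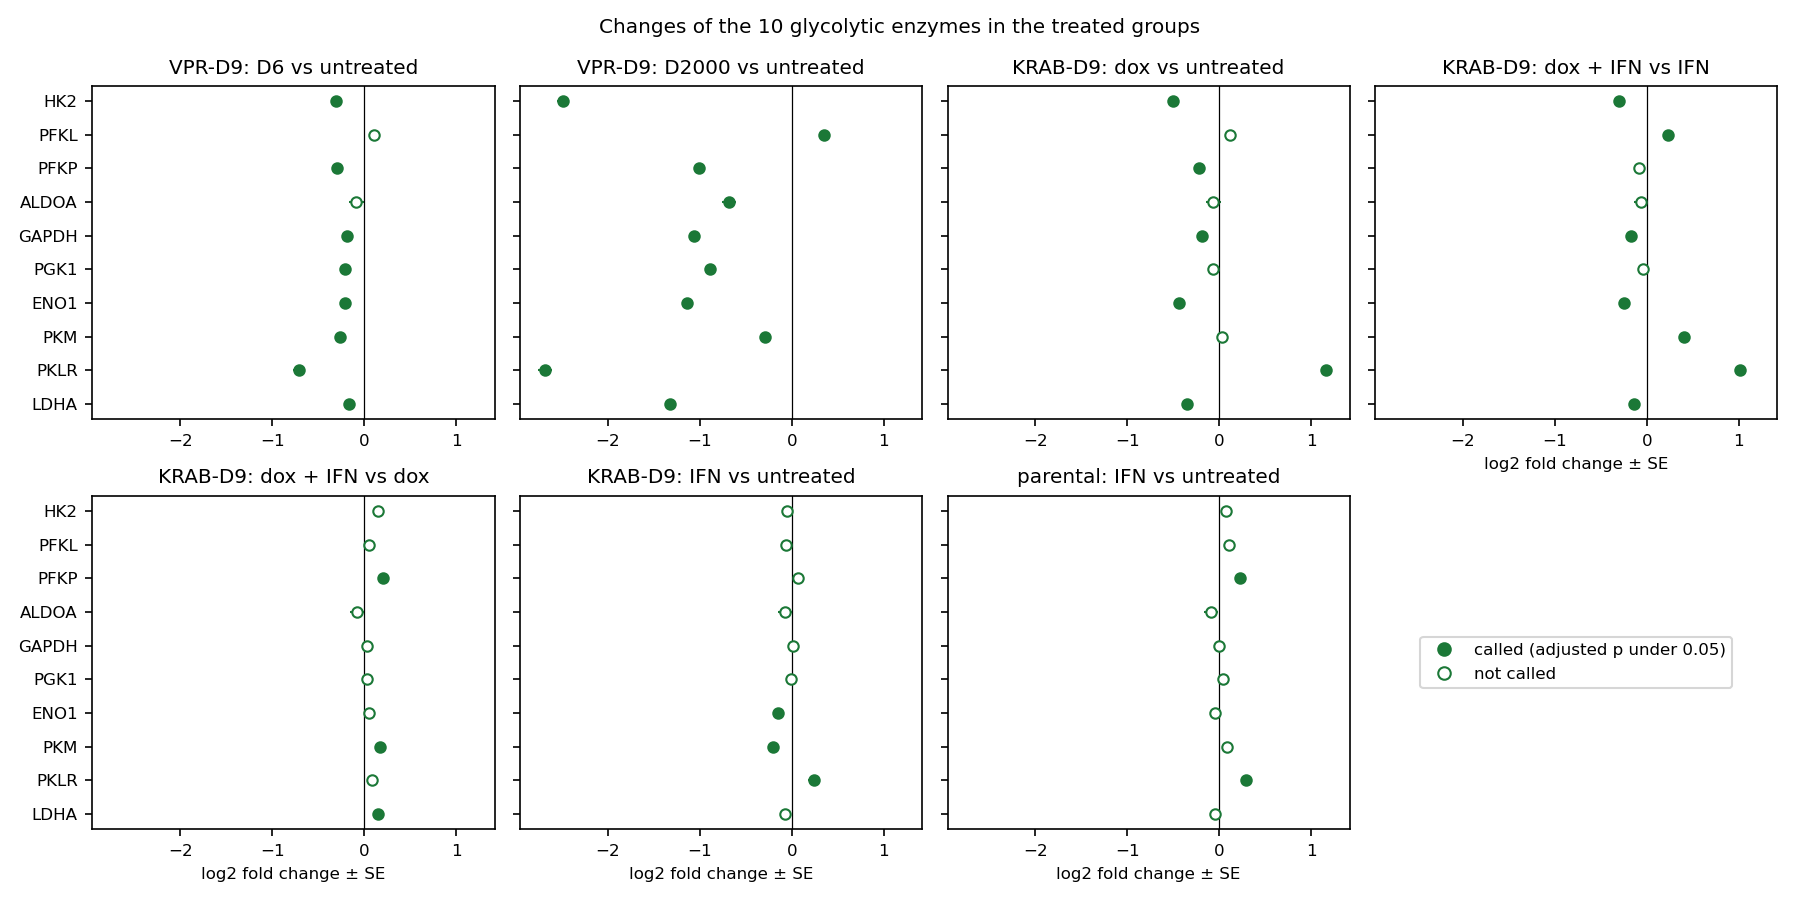
Log2 fold change (points, horizontal axis) with its SE (bars, mostly within the points) of the 10 glycolytic enzymes in 7 comparisons of treated cells, each panel titled with the treated group before the one it is set against; filled points were called at an adjusted p under 0.05. In D2000 9 of 10 points lie left of 0, with HK2 at -2.49 and PKLR at -2.69, whereas PKLR alone stands near 1 in both doxycycline panels of K562[KRAB]-D9 cells.

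In D6 cells, set against the same untreated libraries as D2000 cells, PKLR was again the gene furthest below the untreated level. Of the 10 genes, 8 were called lower and none higher, when 3.41% of all genes tested and 11.7% of genes of at least 50 CPM were called lower and 3.19% of all genes higher. The median log2 fold change was -0.21 for the 10 genes, -0.01 for all genes and -0.05 for genes of at least 50 CPM. PKLR moved most, with 19.4 and 19.6 CPM in D6 libraries, against 33.05 and 30.7 CPM in untreated libraries (-0.71 ± 0.06, edgeR adjusted p = 8.21e-11). HK2 had 57.9 and 56.2 CPM in D6, against 70.2 and 70.6 CPM in untreated cells (-0.30 ± 0.06, edgeR adjusted p = 0.00041). No D6 library reached an untreated one for either gene. With library totals 69% of all calls were higher, against 48.4% with TMM.

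The other calls in D6 were PFKP (-0.29), PKM (-0.27), ENO1 (-0.21), PGK1 (-0.21), GAPDH (-0.18) and LDHA (-0.16). LDHA had 895 and 947 CPM in D6, against 1029 and 1031 CPM in untreated cells, and its call was lost without untreated replicate 1 (adjusted p = 0.0568), untreated replicate 2 (0.0592) or D6 replicate 1 (0.204). PFKL (0.10 ± 0.05, edgeR adjusted p = 0.227) and ALDOA (-0.09 ± 0.08, edgeR adjusted p = 0.675) were not called. ENO2 was higher in D6 (0.73), P4HA1 was higher (0.61), SLC16A3 was higher (1.09), SLC2A1 was lower (-0.35), and HK1 was lower (-0.16). Of 15 erythroid markers 4 were lower and none higher, beside 3.41% lower and 3.19% higher of all genes tested. The 15 summed to 1130 to 1155 CPM in D6, against 1271 to 1280 CPM in untreated libraries. Myeloid markers summed to 160.9 to 164.6 CPM in D6, with MPO and ELANE at 0, against 113.1 to 114.1 CPM in untreated libraries. Of the 5 tested, ITGAM alone was called higher (2.87) and none lower. The part of these markers in the D6 changes was not tested.

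Set directly against D2000, D6 cells had higher levels of 8 of the 10 genes and a lower level of 1, when 21.7% of all genes tested and 60.2% of genes of at least 50 CPM were called higher and 18.8% of all genes lower. With library totals 31.2% of all calls were higher, against 53.6% with TMM. HK2 was 4.56-fold higher in D6 (2.19 ± 0.07), PKLR 3.94-fold higher (1.98 ± 0.08) and LDHA 2.24-fold higher (1.16 ± 0.04). PFKL was lower in D6 (-0.25 ± 0.05). PKM had 988 and 991 CPM in D6, against 989 and 957 CPM in D2000, and its libraries overlapped (0.02 ± 0.04, edgeR adjusted p = 0.687). SAMD9 levels of D6 and D2000 overlapped as well. MYC was higher in D6 than in D2000 (1.68), as were KLF1 (1.01) and TKT (0.83), whereas NDRG1 (-2.77), SLC16A3 (-2.12) and P4HA1 (-0.81) were lower in D6.

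In K562[KRAB]-D9 cells doxycycline raised PKLR while most other enzymes that changed were lower. PKLR had 153 and 144 CPM with doxycycline, against 65.4 and 66.8 CPM without treatment. Both doxycycline libraries stood above both untreated ones, a 2.24-fold rise (1.17 ± 0.06, edgeR adjusted p = 5.27e-19). Of the 10 genes, 1 was called higher and 5 lower. Over all genes tested 12% were called higher and 12.7% lower, and over genes of at least 50 CPM 18.1% higher and 34.4% lower. The median log2 fold change was -0.13 for the 10 genes, 0.02 for all genes and -0.05 for genes of at least 50 CPM.

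HK2 had 82.4 and 78.2 CPM with doxycycline, against 112 and 116 CPM in untreated cells (-0.51 ± 0.06, edgeR adjusted p = 3.91e-09). ENO1 had 2128 and 2075 CPM with doxycycline, against 2841 and 2852 CPM in untreated cells (-0.44 ± 0.03). LDHA had 834 and 749.5 CPM with doxycycline, against 1012 and 1010 CPM in untreated cells (-0.35 ± 0.04). For each of the 3 the groups did not overlap. PFKP (-0.22) and GAPDH (-0.19) also fell, and PFKL (0.12), ALDOA (-0.06), PGK1 (-0.07) and PKM (0.03) were not called.

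With IFN present in both arms, doxycycline again raised PKLR, and PKM and PFKL were called higher as well. PKLR had 157 and 159 CPM with doxycycline and IFN, against 74.4 and 81.2 CPM with IFN alone, and the groups stood well apart (1.01 ± 0.06, edgeR adjusted p = 2.48e-17). Of the 10 genes, 3 were called higher and 4 lower, when 10.4% of all genes tested were called higher and 11.9% lower, and 17.3% and 32.5% of genes of at least 50 CPM. PKM had 514 and 532 CPM with doxycycline and IFN, against 387 and 406 CPM with IFN alone (0.40 ± 0.04, edgeR adjusted p = 7.24e-10), and PFKL was higher by 0.24. HK2 (-0.31), ENO1 (-0.24), GAPDH (-0.17) and LDHA (-0.14) were lower. The call of LDHA was lost with library totals (-0.08, edgeR adjusted p = 0.131) and without replicate 1 of the doxycycline and IFN group (adjusted p = 0.158). With library totals 61.4% of all calls in this comparison were higher, against 46.7% with TMM.

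The pyruvate kinase mixture of K562[KRAB]-D9 cells shifted towards PKLR with doxycycline. Per gene length, PKLR made up 45.2 and 44.6% of PKLR and PKM RNA with doxycycline and IFN and 46.0 and 46.6% with doxycycline alone. It made up 34.2 and 35.1% with IFN alone and 28.3 and 28.2% in untreated K562[KRAB]-D9 cells. Without division by length the shares were 23.3 and 23.0%, 23.9 and 24.4%, 16.1 and 16.7%, and 12.7% in both untreated libraries, in the same order of groups. Every doxycycline library was above every library of the line without it on either scale.

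**Figure D3:**
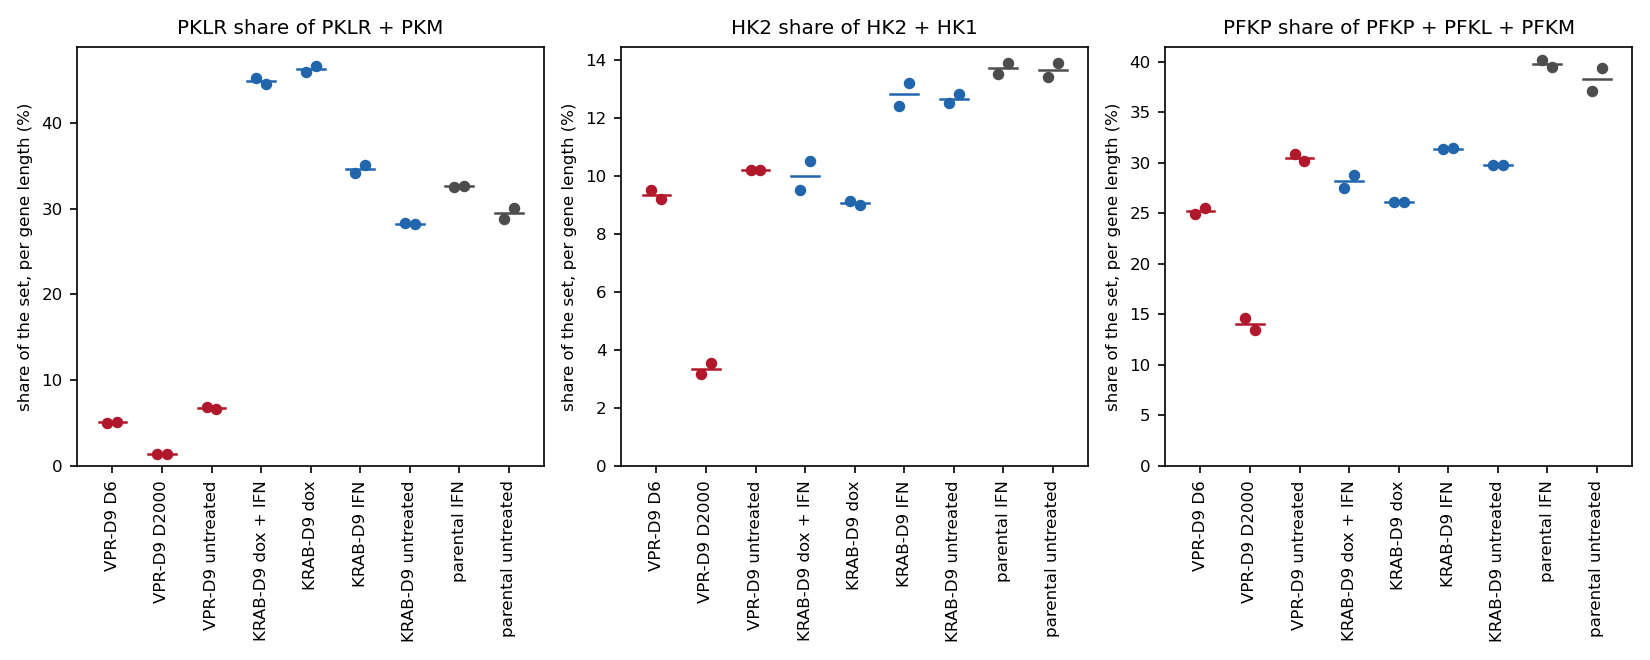
Share of PKLR among PKLR and PKM, of HK2 among HK2 and HK1, and of PFKP among the 3 phosphofructokinase genes in each library (points) and the group mean (bar), in % of CPM per kilobase of gene length. PKLR reaches 46.0 and 46.6% in K562[KRAB]-D9 cells with doxycycline and is at 1.33 and 1.39% in D2000 cells, where the HK2 and PFKP shares are lowest as well.

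Genes around the pathway moved in both directions with doxycycline in K562[KRAB]-D9 cells. The counts below stand beside 12% higher and 12.7% lower of all genes tested, and 18.1% and 34.4% of genes of at least 50 CPM. Of 13 other glycolytic enzymes, 1 was higher and 6 lower: BPGM rose (34.5 and 37.1 CPM with doxycycline, against 23.9 and 24.4 CPM in untreated cells, a change of 0.57), whereas TPI1, the triose phosphate isomerase (-0.26), ADPGK, the ADP-dependent glucokinase (-0.38), and PFKM (-0.16) were lower. Of 7 transport genes 1 was higher, SLC2A1 (0.54), and 2 were lower, SLC2A3 (-0.77) and SLC16A1, a lactate transporter (-0.36). Of 13 regulators 6 were higher and 2 lower, with PFKFB4, which tunes phosphofructokinase, at 0.88 and PDK1, which restrains pyruvate dehydrogenase, at 0.59. Of 8 pentose phosphate enzymes 4 were lower and 1 higher, with RPIA, the ribose phosphate isomerase, at -0.45 and TKT, the transketolase, at -0.21.

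Of 12 hypoxia targets outside glycolysis, 8 were higher with doxycycline and none lower, led by the mitophagy receptors BNIP3L (1.10) and BNIP3 (0.62) and by DDIT4, an inhibitor of mTOR signalling (1.38). MYC was lower (-0.52), KLF1 was higher (0.27) and GATA1 was not called (0.04). Of 15 erythroid markers 10 were higher and 1 lower, and they summed to 3942 to 4024 CPM with doxycycline, against 3434 to 3480 CPM in untreated cells. Myeloid markers summed to 31.7 to 32.67 CPM with doxycycline, against 54.28 to 58.89 CPM in untreated cells, with 2 of 5 tested lower and none higher, and ELANE was at 0 in both groups. Lymphoid markers summed to 3.004 to 3.429 CPM with doxycycline, against 7.231 to 7.497 CPM in untreated cells, with 1 of 6 tested lower. Of 7 fibroblast or epithelial markers tested 6 were lower, and this list summed to 571.8 to 602.8 CPM with doxycycline, against 814.6 to 827.3 CPM in untreated cells. These counts also stand beside 12% higher and 12.7% lower of all genes tested, and 18.1% and 34.4% of genes of at least 50 CPM. With IFN in both arms, 9 of the 12 hypoxia targets were higher and none lower. Of the 15 erythroid markers 7 were higher and 2 lower. Over all genes tested 10.4% were called higher and 11.9% lower there, and over genes of at least 50 CPM 17.3% and 32.5%. Myeloid markers then summed to 31.64 to 34.99 CPM with doxycycline and IFN, against 59.09 to 60.1 CPM with IFN alone, with 3 of 5 tested lower. The part of these lists in the changes of PKLR was not tested.

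PKLR overlaps HCN3, an ion channel gene on the opposite strand, over 17.6% of its exonic bases. HCN3 had 20.35 CPM in both libraries with doxycycline, against 16.1 and 12.8 CPM in untreated K562[KRAB]-D9 cells (0.49, edgeR adjusted p = 0.00021), and it was not called in D2000 (0.07). The library kit keeps the strand, but the sources used here do not state the strand setting of the counting. Liver markers summed to at most 0.598 CPM in every library, with 2 of 8 passing the filter on low counts.

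**Figure D4:**
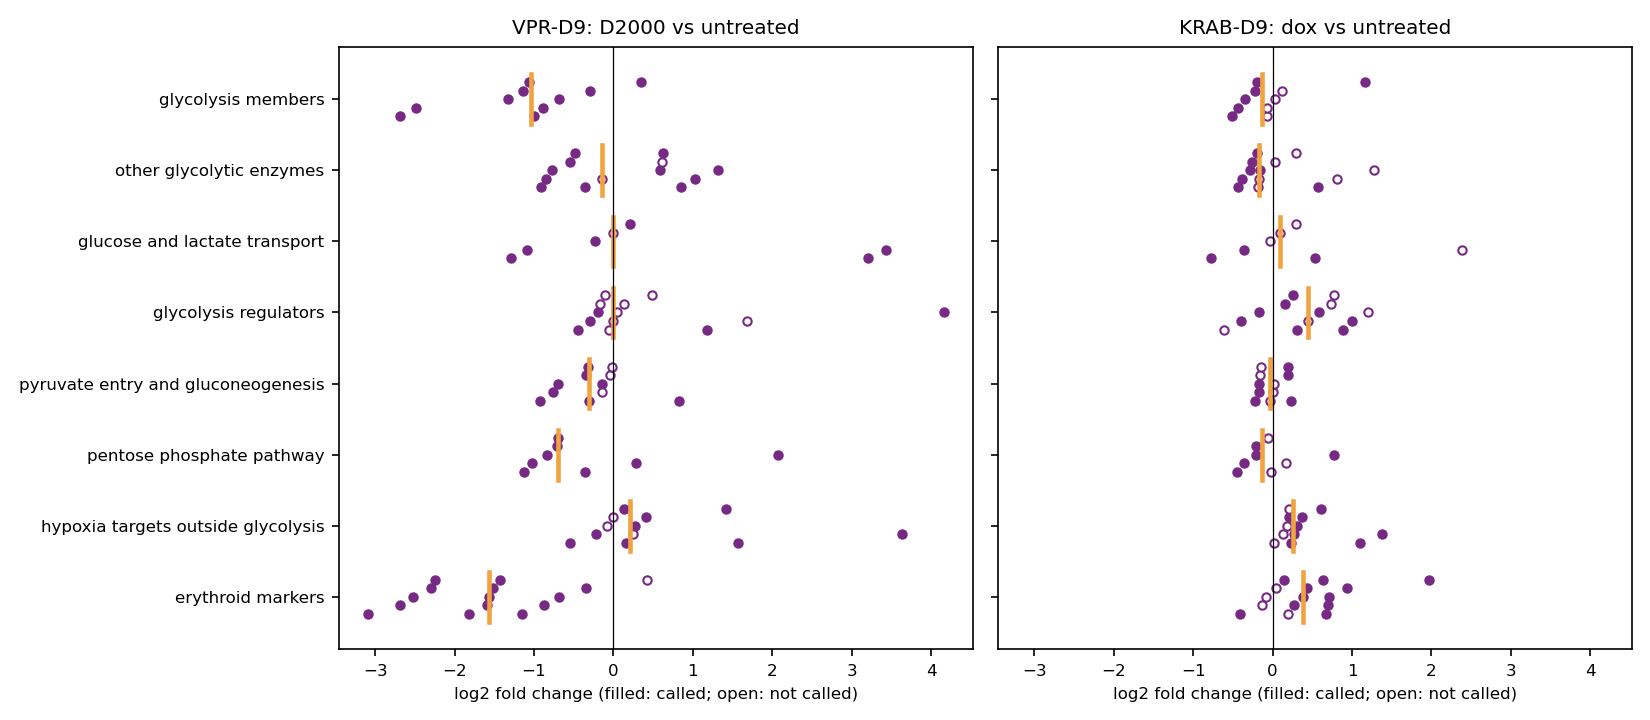
Log2 fold change (horizontal axis) of each tested gene in 8 gene lists (rows) for D2000 against untreated K562[VPR]-D9 cells (left) and doxycycline against untreated K562[KRAB]-D9 cells (right), with filled points for called genes and the list's median as an orange bar. The median of the 10 enzymes is -1.03 on the left and -0.13 on the right, and that of the erythroid markers is -1.57 on the left and 0.38 on the right.

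The D2000 change in K562[VPR]-D9 cells and the doxycycline change in K562[KRAB]-D9 cells differed for all 10 genes when the difference itself was tested, against 31.3% of all genes tested and 66.7% of genes of at least 50 CPM. The difference was -3.85 ± 0.09 for PKLR (edgeR adjusted p = 5.43e-29), which fell in the D2000 comparison and rose in the other. HK2 (-1.99), LDHA (-0.97), GAPDH (-0.87), PGK1 (-0.82), PFKP (-0.79), ENO1 (-0.70), ALDOA (-0.62) and PKM (-0.32) also had the lower value in D2000, and PFKL had the higher one (0.23). The difference of PKM was -0.13 and not called with library totals (edgeR adjusted p = 0.0734). With library totals 63.2% of all calls in this difference were higher, against 38.9% with TMM.

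Between D6 and doxycycline in K562[KRAB]-D9 cells, the change differed for 4 of the 10 genes, when 15.5% of all genes tested and 33.9% of genes of at least 50 CPM differed. PKLR (-1.87 ± 0.08) and PKM (-0.30 ± 0.06) had the lower change in D6, and ENO1 (0.23 ± 0.05) and LDHA (0.19 ± 0.06) the higher one. The difference of LDHA was lost without either untreated K562[VPR]-D9 library, D6 replicate 2 or doxycycline replicate 2 (edgeR adjusted p from 0.0566 to 0.261). HK2 (0.20 ± 0.08) and GAPDH (0.01 ± 0.05) were not called.

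IFN changed few of the 10 genes, and by little. In parental cells PKLR had 110.4 and 123 CPM with IFN, against 93.2 and 97.4 CPM without treatment, and PFKP had 123 and 126 CPM with IFN, against 106 and 108 CPM without. The changes were 0.29 ± 0.05 for PKLR (edgeR adjusted p = 0.000334) and 0.22 ± 0.05 for PFKP (edgeR adjusted p = 0.00653). Over all genes tested 3.03% were called higher and 1.31% lower, and over genes of at least 50 CPM 6.43% and 4.21%. Of the 10 genes, PKLR and PFKP were the 2 called higher, with none lower. Without IFN replicate 2 neither was called (PKLR 0.21, edgeR adjusted p = 0.0713, and PFKP 0.20, edgeR adjusted p = 0.101), and without untreated replicate 1 PFKP was not (edgeR adjusted p = 0.0987). Among the other lists PFKFB4 (0.73), ALDOC (0.49), PCK2, the mitochondrial enzyme that turns oxaloacetate into phosphoenolpyruvate (0.37), and VEGFA (0.34) were higher, and 5 of 15 erythroid markers were higher and none lower.

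In K562[KRAB]-D9 cells without doxycycline, PKLR had 74.4 and 81.2 CPM with IFN, against 65.4 and 66.8 CPM without treatment. The change was 0.24 ± 0.06 (edgeR adjusted p = 0.0049). PKM had 387 and 406 CPM with IFN, against 449 and 460.4 CPM without (-0.20 ± 0.04), and ENO1 was lower by 0.15 on the log2 scale. These 3 calls, 1 higher and 2 lower, stand beside 3.98% of all genes called higher and 2.42% lower. Among genes of at least 50 CPM the shares were 8.81% higher and 6.55% lower. All 3 calls were lost in a model of the 2 groups alone, and the cause was not tested. The edgeR adjusted p there was 0.113 for PKLR, 0.0582 for PKM and 0.169 for ENO1. PKLR was also lost without untreated replicate 1 (edgeR adjusted p = 0.0698) or IFN replicate 2 (0.0927), and ENO1 without IFN replicate 1 (0.0768). SLC2A3 was lower (-0.64) and TXNIP higher (0.44).

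With doxycycline in both arms, IFN raised PFKP (0.20 ± 0.05), PKM (0.17 ± 0.04) and LDHA (0.15 ± 0.04), 3 of the 10 genes higher and none lower. Over all genes tested 3.12% were called higher and 1.77% lower, and over genes of at least 50 CPM 7.36% and 5.02%. PKM had 514 and 532 CPM with doxycycline and IFN, against 485 and 446 CPM with doxycycline alone. PKLR had 157 and 159 CPM with both, against 153 and 144 CPM with doxycycline alone, and was not called (0.09 ± 0.05, edgeR adjusted p = 0.482). None of the 3 calls was kept without doxycycline replicate 2 or without doxycycline and IFN replicate 2, and PFKP was lost without doxycycline replicate 1 as well (edgeR adjusted p = 0.138). PGAM1 (0.22) and TPI1 (0.11) were among 3 of 13 other glycolytic enzymes that were higher.

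Of the 10 genes, the IFN effect was called different between conditions for PKM, and for no other in edgeR with TMM; with doxycycline against without, library totals called 2 genes and DESeq2 called 3. The IFN effect on PKM was higher with doxycycline than without it by 0.37 ± 0.06 (edgeR adjusted p = 0.000567). Of all genes tested 0.158% were called there, and of genes of at least 50 CPM 0.485%. The IFN effect on PKM was lower in K562[KRAB]-D9 cells than in parental cells (-0.28 ± 0.06, edgeR adjusted p = 0.0161). There 0.303% of all genes tested and 0.759% of genes of at least 50 CPM were called. The call between the lines was lost in a model of the 4 groups alone (adjusted p = 0.184) and without untreated parental replicate 2 (0.101), parental IFN replicate 2 (0.275) or untreated K562[KRAB]-D9 replicate 2 (0.1). Without K562[KRAB]-D9 IFN replicate 2, more of the 10 genes were called in both comparisons. The share of all genes called in that setting is not given here. For PKLR the difference was -0.15 ± 0.08 with doxycycline against without, and -0.05 ± 0.08 between the lines, and neither was called.

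The untreated lines differed in these enzymes before any treatment. The targeted gene SAMD9 differed as well. Against parental cells, SAMD9 was higher in untreated K562[VPR]-D9 cells (2.72 ± 0.07) and lower in untreated K562[KRAB]-D9 cells (-3.99 ± 0.16). In untreated K562[VPR]-D9 cells PKLR had 33.05 and 30.7 CPM, against 93.2 and 97.4 CPM in parental cells, 2.99-fold lower (-1.58 ± 0.06, edgeR adjusted p = 1.13e-23). PKM had 1206 and 1173 CPM in untreated K562[VPR]-D9 cells, against 623 and 613 CPM in parental cells, 1.92-fold higher (0.94 ± 0.04). The pyruvate kinases thus lay on opposite sides of the parental level, and PKLR made up 6.90 and 6.61% of the pair per gene length, against 28.8 and 30.1% in parental cells. HK2 (-0.93), GAPDH (-0.53), ALDOA (-0.38), ENO1 (-0.21) and LDHA (-0.18) were also lower and PFKL higher (0.48). These 2 higher and 6 lower calls stand beside 18.5% and 18.2% of all genes tested, and beside 26.2% and 38.8% of genes of at least 50 CPM. With library totals 60.2% of all calls were higher, against 50.4% with TMM. ENO2 was higher (1.93) and SLC2A1 lower (-0.90), and of 15 erythroid markers 12 were lower and 1 higher. Myeloid markers summed to 113.1 to 114.1 CPM in untreated K562[VPR]-D9 cells, against 63.5 to 64.28 CPM in parental cells, with 3 of 5 tested higher.

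In untreated K562[KRAB]-D9 cells PKLR had 65.4 and 66.8 CPM, against 93.2 and 97.4 CPM in parental cells (-0.53 ± 0.06, edgeR adjusted p = 6.37e-10). PKM had 449 and 460.4 CPM, against 623 and 613 CPM in parental cells (-0.44 ± 0.04). Both kinases were lower than in parental cells, and PKLR made up 28.3 and 28.2% of the pair per gene length, against 28.8 and 30.1% in parental cells. GAPDH (-0.39), HK2 (-0.23), LDHA (-0.21), PFKP (-0.15) and ENO1 (-0.12) were lower and PFKL higher (0.35). These calls, 1 higher and 7 lower with the kinases, stand beside 14.2% and 14.3% of all genes tested. Among genes of at least 50 CPM the shares were 24.9% and 25.1%. The call of PFKP was lost without any 1 of the 4 libraries (edgeR adjusted p from 0.0556 to 0.182). All 15 erythroid markers were higher in this line, with a sum of 3434 to 3480 CPM, against 2063 to 2077 CPM in parental cells, so PKLR and the erythroid markers lay on opposite sides of the parental level here.

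Across the 9 groups, PKLR ran from 158 CPM on average in K562[KRAB]-D9 cells with doxycycline and IFN and 148 CPM with doxycycline, through 117 CPM in parental cells with IFN, 95.3 CPM in untreated parental cells, 77.8 CPM in K562[KRAB]-D9 cells with IFN and 66.1 CPM in untreated K562[KRAB]-D9 cells. The K562[VPR]-D9 groups were lowest, at 31.9 CPM untreated, 19.5 CPM in D6 and 4.95 CPM in D2000. No neighbours in this order had overlapping libraries, though the first pair was not called different. PGK1 was the opposite case: 6 of its 8 neighbouring pairs of groups overlapped, and apart from D6 (374 CPM) and D2000 (233 CPM) its group means lay between 389 and 442.5 CPM.

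Over the 9 group means, on the scale log2 (CPM + 0.5), genes with among the highest Pearson correlations with PKLR, of 10446 genes of at least 5 CPM, were ACAT2 (0.992), ZNF440 (0.987), C12orf65 (0.986) and ARMC8 (0.986). KLF1 stood at rank 207 with 0.946, GATA1 at rank 729 with 0.898 and MYC at rank 1474 with 0.837. Of the enzymes ALDOA came nearest (0.921, rank 442), while PKM (-0.72) and PFKL (-0.68) ran the other way. For LDHA the genes most alike were PAICS (0.996), DDX23 (0.993), MTFR2 (0.993), TIMM10 (0.992) and LIAS (0.991), and ENO1 stood at rank 13 with 0.988. These values describe 9 group means from the same libraries and scaling, in which D2000 lies far from the other groups.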

How the data were processed

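RNA of 18 K562 libraries was measured by polyA-selected sequencing with a stranded kit, per the labels' protocols. The authors deposited raw counts of reads for each gene, made with cutadapt 2.10, STAR 2.7.8a, FastQC 0.11.9 and featureCounts 2.0.2 on GRCh38.p13, per the submitters' processing notes. Annotation release, strand setting and treatment of multi-mapping reads were not given in the sources used here.

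From the deposited counts, genes were filtered with filterByExpr by group (22143 of 41285 kept), scaled by TMM, and fitted in 1 edgeR 4.0.16 robust quasi-likelihood model of 9 group means (R 4.3.3). The model had 9 residual degrees of freedom, and its common dispersion corresponds to a coefficient of variation of 0.0569. The 14 comparisons used Benjamini-Hochberg adjustment over all genes tested and a threshold of 0.05. The SE of a log2 fold change was derived from the test, as its size over the square root of F. Levels are CPM after TMM scaling; per-length values use the deposited gene lengths. Libraries of 32.7 M to 63 M counts gave each of the 10 genes at least 330 counts.

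The 10 genes, the gene lists and the tests were chosen with earlier results of these data known. Named genes were the 10 enzymes wherever called, SAMD9, up to 3 called genes per other pathway list and comparison with the smallest adjusted p, the partners HK1, PFKM, ALDOC, ENO2, LDHB and BPGM, and the 5 genes most like PKLR and LDHA in pattern. Some genes that this rule names are not reported here. KLF1, GATA1, HCN3 and the myeloid markers ITGAM, LYZ, CD33, CD14 and CSF3R, where outside that rule, were named after their values were seen. Exon overlaps and pseudogenes were taken from GENCODE 29; pseudogene counts were at most 0.208% of a gene's counts (GAPDH). Promoters are from RefSeq (GRCh38.p14). The steps were tested on simulated data. Alternatives were DESeq2 1.42.0, its size factors in edgeR, library totals, other filters, only the groups compared, a replicate block, pseudogene counts added, and each library left out in turn.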

Additional observations from a re-analysis of the deposited data

Results flagged for a closer look

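The tests of differences between effects singled out 16 results, each a difference between log2 fold changes called by edgeR's quasi-likelihood test with Benjamini-Hochberg adjustment over all genes. For PKM, the IFN effect in K562[KRAB]-D9 cells was higher with doxycycline than without it (0.37, adjusted p = 0.000567), and the IFN effect was lower in K562[KRAB]-D9 than in parental cells (-0.28, adjusted p = 0.0161). These 2 differences share the libraries of K562[KRAB]-D9 cells with IFN and without treatment.

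The D2000 effect in K562[VPR]-D9 cells minus the doxycycline effect in K562[KRAB]-D9 cells was -3.85 for PKLR, -1.99 for HK2, -0.97 for LDHA, -0.87 for GAPDH and -0.82 for PGK1. It was -0.79 for PFKP, -0.70 for ENO1, -0.62 for ALDOA, -0.32 for PKM and 0.23 for PFKL. The D6 effect minus the same doxycycline effect was -1.87 for PKLR, -0.30 for PKM, 0.23 for ENO1 and 0.19 for LDHA. The D2000 and D6 differences share their untreated K562[VPR]-D9 libraries and both K562[KRAB]-D9 groups. In each group the libraries were too few to look for single libraries far from the others.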

How the results depend on the processing

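Of 640 repeats of the 80 called values under 8 settings that kept all libraries, 632 kept direction and call, 8 lost the call and 0 changed direction; of 384 repeats that left out 1 library, 356 kept both, 28 lost the call and 0 changed direction. The added setting, which left the shallowest library out of the model, was chosen after seeing the data and changed no call of the 68 values that do not use its group. Library totals ended the calls of LDHA with doxycycline and IFN (-0.08), PKM in D2000 (-0.06) and PKM in the D2000 difference (-0.13). With only the groups compared, the calls of ENO1 (-0.15), PKM (-0.21) and PKLR (0.23) with IFN in K562[KRAB]-D9 cells, of LDHA with doxycycline and IFN (-0.14) and of PKM between the lines (-0.27) ended; the cause was not tested. That setting left 0 of 3 calls for IFN in K562[KRAB]-D9 cells and 0 of 1 for the IFN effect between the lines. For the IFN effect by doxycycline, library totals called 2 and DESeq2 3 of the 10 genes, against 1; over all genes DESeq2 called 85, against 35, and 126, against 67, between the lines.

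Leaving out each library in turn, the number of the 10 genes called ran from 0 to 2 for IFN in parental cells, 2 to 4 for IFN in K562[KRAB]-D9 cells, 0 to 3 for IFN with doxycycline, 1 to 5 for the IFN effect by doxycycline and 0 to 4 for the IFN effect between the lines. It was 6 for doxycycline, 6 to 9 for doxycycline with IFN, 10 for D2000, 7 to 8 for D6 and 9 for D6 against D2000. It was 8 for untreated K562[VPR]-D9 cells, 7 for untreated K562[KRAB]-D9 cells, 10 for the D2000 difference and 3 to 4 for the D6 difference. A group left with 1 library was assumed to vary like the others. The shares of all genes called in these settings are not given here, so the counts were not set beside them. The correlation of same-numbered deviations over 36 pairs of groups ran from -0.145 to 0.229 (median 0.00643), with 3 above 0.1. The replicate numbers thus showed no pairing common to all groups, and whether some groups were paired is not known. With a replicate block all 80 calls were kept, and doxycycline in K562[KRAB]-D9 cells had 7 calls, against 6. Each of the 10 genes had at least 330 counts in every library, and precision is limited by 2 libraries a group.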
